A study of Drosophila melanogaster with 3 samples.

Results

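Later intron peaks were the CG2678-GFP binding summits that lay inside protein-coding genes but beyond the first intron. A summit was counted when it was more than 500 bp from every annotated transcription start site (TSS), lay on no exon, and was inside an intron of a protein-coding transcript but inside no first intron of any such transcript. Of the 9459 summits in the peak list that passed the authors' threshold on the irreproducible discovery rate (IDR), 1414 met this rule. The rule used position alone and no signal value.

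The study mapped CG2678, a zinc finger protein also named kipferl, by chromatin immunoprecipitation and sequencing (ChIP-seq) in Drosophila melanogaster. All samples were whole embryos aged 0 to 24 h, males and females pooled, from a transgenic line that stably carries CG2678 with GFP at its C terminus, and the antibody was directed against GFP. Sonicated chromatin of 200 to 800 bp was used in 3 biological replicates, which formed 1 group with no second condition, and a control library was not analysed here. The deposited lists give 30000 peaks for each replicate, 30000 for the pooled replicates and the 9459 IDR peaks, which were also the strongest pooled peaks. Read depth is unknown from these lists, so the spread of the 3 replicates is the error given here. Signal is the authors' own score per peak and was used to rank peaks within a list. P-values over peaks describe these lists, since peaks are not replicates of the embryos. Without the control library, effects of base composition or of open chromatin on recovery cannot be told apart from binding. In whole embryos, strong binding in few cells and weak binding in many cannot be told apart.

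Introns are removed from the transcript, but their DNA often holds enhancers, which act on promoters at a distance. In Drosophila the long introns of developmental genes are known for such elements, and genes nested inside an intron of another gene are common. Kipferl is known from ovaries, where it recruits Rhino, a heterochromatin protein of the piRNA pathway, to the DNA.

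Of the 20 strongest later intron summits, 17 had a lower GC content than a flank window 300 bp away. The windows of 50 bp either side of the summit are printed for 7 of the 20 as examples. Sequences are from the RefSeq copy of the dm6 assembly, on the forward strand, 5′ to 3′, and capitals mark runs of 6 or more bases made of A and T only. The windows were CG11050 at chr2L:6612657-6612757, Trl at chr3L:14759469-14759569, Kdm2 at chr3R:9057507-9057607, Msp300 at chr2L:5145705-5145805, Raf at chrX:2297679-2297779, waw at chrX:21366495-21366595 and Dad at chr3R:17065115-17065215. For the first 3, the flank window centred 300 bp to the higher coordinate is printed below its summit, at chr2L:6612957-6613057, chr3L:14759769-14759869 and chr3R:9057807-9057907.
CG11050 summit: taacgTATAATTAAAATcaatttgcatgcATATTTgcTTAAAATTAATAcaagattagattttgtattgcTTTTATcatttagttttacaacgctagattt
CG11050 flank: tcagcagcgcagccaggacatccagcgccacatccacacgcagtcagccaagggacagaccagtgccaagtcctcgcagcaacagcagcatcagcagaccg
Trl summit: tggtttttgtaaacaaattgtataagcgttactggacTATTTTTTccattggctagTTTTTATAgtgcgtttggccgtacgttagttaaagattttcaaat
Trl flank: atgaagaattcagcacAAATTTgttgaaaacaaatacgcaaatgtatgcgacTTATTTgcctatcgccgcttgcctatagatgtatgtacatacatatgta
Kdm2 summit: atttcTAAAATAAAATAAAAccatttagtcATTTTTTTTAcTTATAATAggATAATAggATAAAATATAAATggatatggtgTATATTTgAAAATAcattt
Kdm2 flank: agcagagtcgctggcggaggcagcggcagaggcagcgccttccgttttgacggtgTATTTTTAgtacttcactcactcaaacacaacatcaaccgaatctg
Msp300 summit: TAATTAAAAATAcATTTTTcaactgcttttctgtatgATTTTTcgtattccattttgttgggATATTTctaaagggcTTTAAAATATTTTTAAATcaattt
Raf summit: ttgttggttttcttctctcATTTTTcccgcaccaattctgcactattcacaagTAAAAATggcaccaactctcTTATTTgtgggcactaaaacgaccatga
waw summit: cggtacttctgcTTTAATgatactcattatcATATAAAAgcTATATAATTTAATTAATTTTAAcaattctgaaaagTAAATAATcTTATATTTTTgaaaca
Dad summit: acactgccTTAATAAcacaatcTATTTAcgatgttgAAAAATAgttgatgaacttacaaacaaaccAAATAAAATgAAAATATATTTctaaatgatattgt
GC content was 21.8% at the CG11050 summit and 62.4% in its flank, which lay beyond the 3′ end of that 140 bp intron. At Kdm2 it was 16.8% at the summit and 52.5% in the flank, with 7 capital runs at the summit and 1 in the flank. Trl differed less, with 31.7% at the summit and 34.7% in the flank and 2 capital runs in each. The waw window held the longest run of those printed, 22 bases, and Raf the most GC, 39.6%, with a longest run of 7 bases. The Raf flank, not printed, had less GC than its summit, 30.7%. CG14434, also not printed, had 28.7% at the summit and 23.8% in the flank.

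Few later intron peaks were among the strongest of the list. They numbered 4 among the 100 strongest IDR peaks and 69 among the 1000 strongest. The strongest lay in intron 2 of CG11050 on 2L and ranked 2nd in the IDR list, with ranks of 3, 2 and 3 in replicates 1, 2 and 3 and signals of 4910, 8775 and 5618 in their own lists. The next lay in intron 2 of Trl, which encodes the GAGA factor, a protein that opens chromatin at promoters, and ranked 9, 5 and 7 in the 3 replicates. Their rank order thus moved by 4 places or fewer between replicates.

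The third was in intron 2 of Kdm2, a histone lysine demethylase gene, with ranks of 71, 42 and 65 and signals of 1874, 4317 and 2088 in replicates 1, 2 and 3. A further Kdm2 peak in the same intron, at 9055928 on 3R, ranked 296, 213 and 206. Msp300, which encodes a giant nesprin that links nuclei to the cytoskeleton in muscle, had ranks of 121, 88 and 116 in its intron 12. Raf, the kinase between Ras and MEK, had ranks of 126, 113 and 140, and CG14434 had 98, 136 and 150. The host genes of the other strong peaks included several regulators of chromatin and signalling. They were mam (the Notch coactivator Mastermind), JIL-1 (a histone H3 kinase), Dad (an inhibitory Smad of the Dpp pathway), upSET and Alh (chromatin proteins), Dys (dystrophin), Hr4 (a nuclear receptor), mamo (a zinc finger protein), Mp (a collagen), Sclp, prage, CG1677, and waw together with bbx, whose introns overlap. These 20 were chosen as the strongest members with a match in all 3 replicates, where a match is a summit within 100 bp among the 9459 strongest peaks of the replicate, and no stronger member was passed over for want of one. Their ranks ran from 2 to 634 over the replicates. Among the wider spreads were those of mamo, with 544, 484 and 221, and prage, with 634, 312 and 393. Of the 20, 14 were in an intron 2, 8 were on X, and 17 had a lower GC content at the summit than in the flank.

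**Figure D1:**
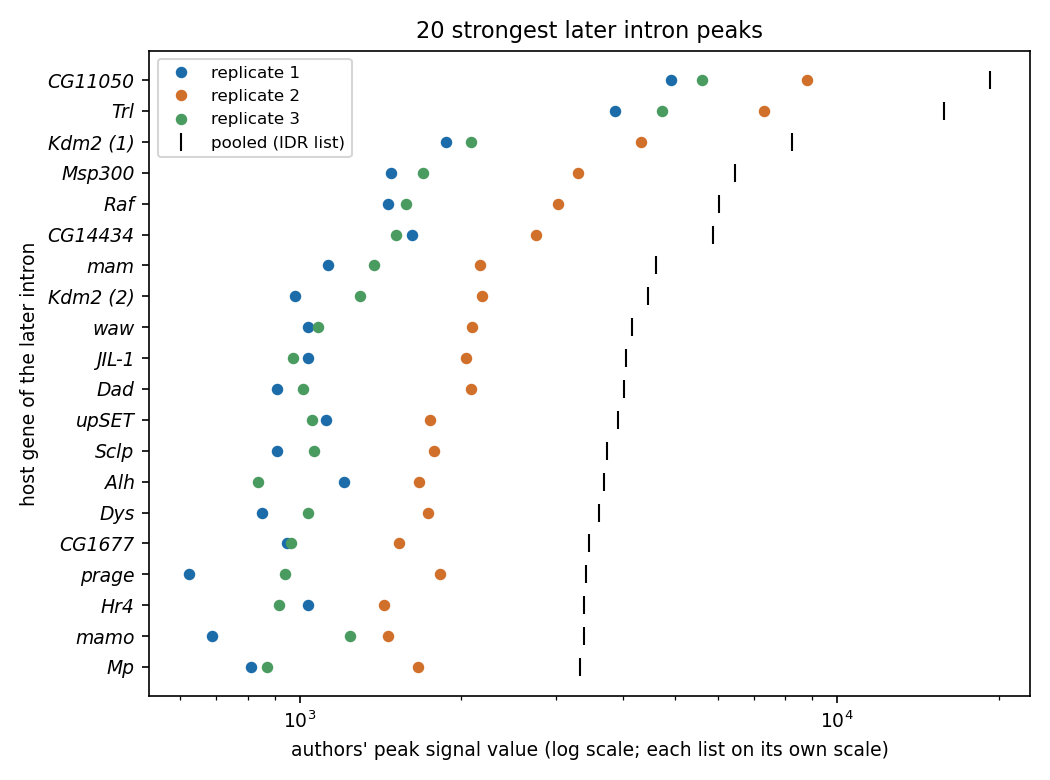
Signal of the 20 strongest later intron peaks, 1 per line, named by host gene, strongest at the top. Points are the 3 replicates and black ticks the pooled IDR list, on a log axis, and each list has its own scale. Replicate 2 has the highest value in all 20, and CG11050 and Trl stand to the right of the others in each replicate.

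Over all members, signal in the IDR list ran from 236.8 to 19236 with a median of 474.8. Their share of peaks was lowest in the strongest ranks, as were those of intergenic and first intron peaks. Of the strongest 946 IDR peaks 63 were later intron peaks (6.66%), in the next 946 the share was 11.5%, and in the 8 bins of lower rank it ran from 14.5 to 17.9%. Intergenic peaks made up 8.88%, 13.0% and 16.4 to 21.6% of the same bins. Of the strongest 946, 26.3% were first intron and 56.3% promoter peaks. By the two-sided Fisher's exact test, 44.6% of later intron peaks (630 of 1414) were in the stronger 50% of the list, against 48.8% of first intron peaks (odds ratio 0.842, exact adjusted p = 0.0134). With any 1 replicate left out, which kept 920 to 1047 members, the odds ratio was 0.834 to 0.875. The call did not hold in these smaller sets (adjusted p 0.0518 to 0.125). Promoter peaks had 56.6% in the stronger 50% (odds ratio 0.617, exact adjusted p = 1.38e-13). Intergenic peaks had 44.9%, which did not pass the test (exact adjusted p = 0.856). Adjusted p-values are by Benjamini-Hochberg over these 3 comparisons. Median width was 335 bp for later intron peaks, 361 bp for first intron peaks, 341 bp for intergenic peaks and 433 bp for promoter peaks.

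Most members recurred in the replicates, and their difference from first intron peaks did not pass the test. The IDR list was called on these same replicates, so this recurrence is no independent support for the members. Replicates 1, 2 and 3 matched 73.1, 87.3 and 82.7% of the 1414 (81.0 ± 7.22%, SD, n = 3). All 3 replicates matched 855 (60.5%, exact 95% interval 57.9 to 63.0%), against 62.8% of first intron peaks (odds ratio 0.908, exact adjusted p = 0.237, two-sided Fisher's exact test), and 28 were matched in none. Among all 30000 peaks of each replicate, 95.2, 96.0 and 95.4% of members had a summit within 100 bp. At the edge of the rule, the 36 members up to 100 bp beyond the 500 bp limit had a median signal of 709, and the 33 intron summits up to 100 bp inside that limit, which were not members, had 537.

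Later intron sequence held fewer summits than its length. It covered 29.5 Mb, 22.1% of the arms, and held 14.9% of the IDR summits (exact 95% interval 14.2 to 15.7%), a ratio of 0.678. In the 9459 strongest peaks of each replicate the share was 12.8, 14.5 and 15.4% in replicates 1, 2 and 3 (ratio 0.644 ± 0.0597, SD, n = 3), so all 3 were below the share of sequence. Density was 47.9 summits per Mb in later introns, against 126 in first introns, 45.4 in intergenic sequence and 179 in promoters. Within introns, 33.6% of summits (exact 95% interval 32.2 to 35.1%) were in later introns, which made up 57.2% of the bases. In the replicates, later introns held 40.9, 46.4 and 49.2 summits per Mb and first introns 110.4, 126 and 128, with no overlap. Among pooled peaks, 14.9% of IDR peaks and 18.96% of the 20541 weaker ones were later intron peaks (odds ratio 0.751, p = 1.35e-17, two-sided Fisher's exact test). With a replicate left out, both sets were limited to peaks matched in the other replicates, which left 40 to 98 of the weaker peaks, and the odds ratio turned to between 1.21 and 3.43 without passing the test (exact p 0.0772 to 0.839).

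Distance from a TSS went with density in both intron classes, and later introns were the lower at each distance. From 0.5 to 1 kb from a TSS, later introns held 89.7 summits per Mb and first introns 196. From 2 to 5 kb the densities were 60.9 in later and 119 in first introns, and over 20 kb they were 16.3 in later and 44.8 in first introns. In the 3 replicates the later intron density was 87.5 ± 4.13 per Mb in the nearest class and 14.8 ± 2.39 in the farthest, against 191 ± 7.08 and 40.7 ± 4.62 in first introns (SD, n = 3). In none of the 6 distance classes did the replicate values of the 2 intron classes overlap. The median member lay 5222 bp from its nearest TSS (quartiles 2281 and 10494 bp), and the farthest 52358 bp.

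**Figure D2:**
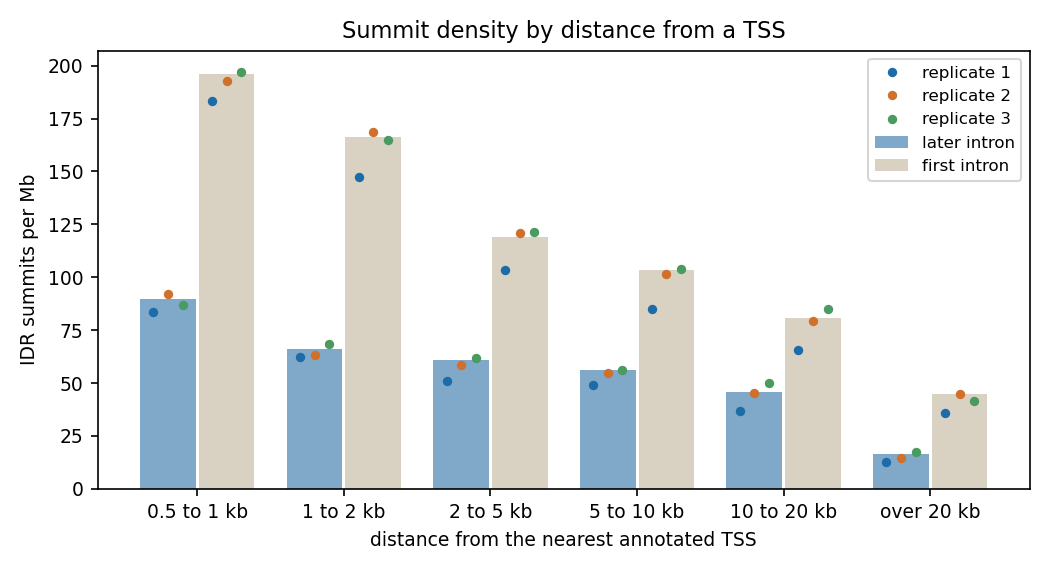
Summits per Mb of later intron (blue) and first intron (grey) sequence, by distance from the nearest annotated TSS. Bars are the IDR list and points the 9459 strongest peaks of each replicate. Density falls with distance in both, from 89.7 to 16.3 per Mb in later introns, and the later intron bar is the lower of each pair.

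The nearest TSS often belonged to another gene. It was that of a host gene for 747 members (52.8%), that of a gene nested in the host intron for 328 (23.2%), of which 188 were protein-coding, and that of another gene outside the intron for 339 (24.0%). CG1677 on X had the second largest number of members of any gene. In it, 6 members had their nearest TSS at brk, which encodes the repressor Brinker of the Dpp pathway and is nested in that intron, at distances from 710 to 7448 bp. A further 6 were nearest to the nested gene unc-119, 4 to CG42780 and 3 to CBP. The strongest brk-nearest peak had a pooled signal of 3448 and signals of 945, 1533 and 963 in replicates 1, 2 and 3, ranking 323, 437 and 374. These members are counted under CG1677 by their host intron, while their nearest start sites are those of nested genes. Other nested protein-coding genes with 4 or more members nearest to them were CG33640 in B4 and CG43188 in luna with 5 each, CG13482 in fz with 5, and CG43192 in arr, hog in NetB and CG42287 in Prosap with 4 each.

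Members were densest in the earlier of the later introns and, by length, in those of 5 to 20 kb. They lay in 722 introns with a median length of 15719 bp (from 109 to 132737 bp). Intron 2 held 872 members, 61.7% of them, on 39.8% of the bases. Its density was 74.1 per Mb, against 49.6 in intron 3, 45.4 in intron 4 and 15.9 in intron 5 or later, where 153 members shared 32.7% of the bases. In the replicates, intron 2 had 63.5, 72.2 and 74.9 per Mb and intron 5 or later 13.3, 15.5 and 17.0, so these ends of the order did not overlap, while introns 3 and 4 did (48.1 ± 5.65 and 41.8 ± 3.05 per Mb, SD, n = 3). By length, introns under 1 kb had 12.1 summits per Mb, those of 1 to 5 kb 47.9, those of 5 to 20 kb 67.0, and those of 20 kb or more 45.1. The shortest class stood apart in each replicate (12.7 ± 0.675 per Mb, against 63.6 ± 6.18 at 5 to 20 kb, SD, n = 3). First introns under 1 kb did not show that low value, with 118 summits per Mb, and had 167, 142 and 87.8 per Mb in the 3 longer classes. Intron length, intron number and distance from a TSS are linked, and their parts were not separated.

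Within the host intron, members lay toward the 5′ end. Leaving out 1 member at the middle, 863 were nearer the 5′ end and 550 nearer the 3′ end, a share of 61.1% (exact 95% interval 58.5 to 63.6%). The exact two-sided binomial test against 50% gave p = 7.82e-17, while 52.3% of the bases under the rule were nearer the 5′ end. Test and interval count each summit as independent, although the 1414 members shared 722 introns. Place in the intron can also go with distance from a TSS, and their parts were not separated. The 3 replicates gave 60.7, 61.3 and 59.1%, each above 52.3%. Along the intron in 10 equal steps, density ran from 54.2 to 58.2 per Mb in the 5 steps of the 5′ side, and from 29.0 to 43.9 per Mb on the 3′ side, with the lowest value in the last step.

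**Figure D3:**
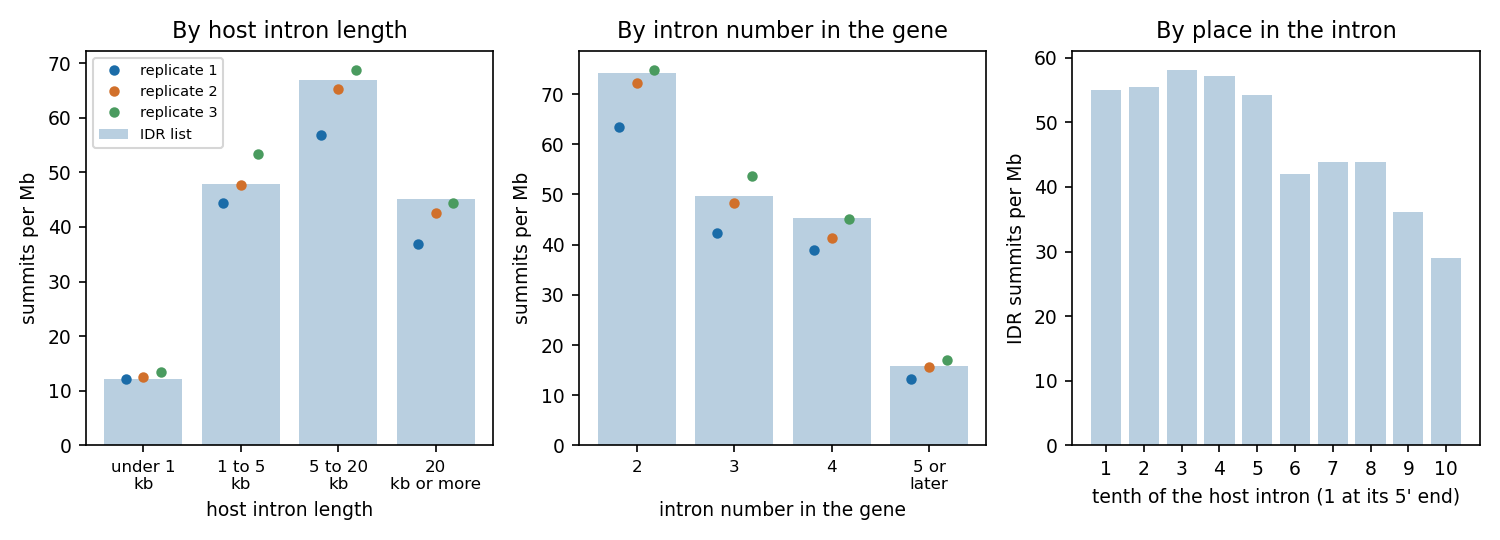
Later intron summits per Mb by host intron length, by intron number and by place in the intron from its 5′ end. Bars are the IDR list and points the replicates, where shown. Introns under 1 kb (12.1 per Mb), introns numbered 5 or later (15.9) and the last step at the 3′ end (29.0) have the lowest densities.

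Later introns of X held more summits than those of the autosomes, and first introns did not show the same. Later intron density was 71.8 per Mb on X and 43.0 on the autosomes, and first intron density was 128 on X and 126 on the autosomes. The ratio of X to autosomes was 1.69, 1.68 and 1.51 in later introns in replicates 1, 2 and 3, and 0.979, 0.971 and 0.974 in first introns, so the 2 sets of ratios do not overlap, with no further test of the difference. Without kirre, the gene with the most members, X still had 68.2 per Mb. Among autosome arms, 2L had 52.6, 3L 49.2, 2R 38.7 and 3R 38.5 per Mb. Chromosome 4 had no member in 0.416 Mb, and a count of 0 there allows up to 7.22 per Mb by 3 counts.

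Members fell on a minority of genes and repeated within them. Of 5984 protein-coding genes with at least 100 bp of later intron sequence, 556 held a member, a background of 9.29%. The share grew with that sequence, from 0.620% of genes with under 1 kb and 10.3% at 1 to 5 kb to 31.5% at 5 to 20 kb and 58.9% at 20 kb or more. By the shortest intron that holds each summit, 73 genes with 5 or more members took 596 of the 1414 (42.1%), and 256 genes had 1. Many members had near neighbours: the next IDR summit was within 1000 bp for 363 (25.7%) and at a median of 2047 bp.

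The 10 genes with most members had 11 to 38 each, and Rbp6 and fz2, which tied with the last of them at 11, were left out. kirre, whose adhesion protein guides myoblast fusion, had 38 members in 293 kb of later intron sequence, and 25, 33 and 36 in replicates 1, 2 and 3. CG1677 had 20 (17, 17 and 18 in the replicates), and rdx, a cullin adaptor of the Hedgehog pathway, had 19 in 40.5 kb (16, 20 and 20), all nearest to a TSS of rdx itself. ftz-f1, a nuclear receptor of the ecdysone response and of segmentation, had 16 in 31.8 kb (13, 15 and 16), all nearest to its own TSSs, and at 502 per Mb the highest density of the 10. The ETS factor pnt, which acts downstream of Egfr, had 14 in 41.7 kb (9, 12 and 12), and 9 of them were nearest to a long non-coding RNA gene nested in its intron. The teneurin Ten-a had 13, the homeodomain factor hth and the Wnt receptor fz 12 each, and mam and the wing vein gene px 11 each. By the shortest host intron, 13 members at kirre, 5 each at Ten-a and mam and 10 at px were nearest to a TSS of that gene. No fz member was nearest to a TSS of fz. Of the 12, 5 were nearest to CG13481, 5 to CG13482 and the others to a long non-coding RNA gene. At hth, 8 members were nearest to the TSSs of hth itself, at distances from 15899 to 49813 bp. In each of these 10 genes all 3 replicates had at least 9 summits, while the tied genes had fewer in replicate 1. Rbp6 had 6, 10 and 10 in replicates 1, 2 and 3, and fz2 had 7, 9 and 9.

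By group of genes, and leaving aside ribosomal protein genes, later intron summits were densest in signalling pathway genes and sparsest in ion channel genes. The lists were compared by summits per Mb, beside 47.9 over all genes, and by the share of genes with a member, beside the 9.29% above. No test of a list was made, and the lists were chosen with earlier results of these data known, so their order is a description only. The median later intron sequence of the lists ran from 1.84 kb a gene (signalling) to 19.4 kb (wiring and adhesion), against 0.480 kb over all genes. Since 31.5% of all genes with 5 to 20 kb held a member, 9.29% is a background of mostly smaller genes. Signalling pathway genes held 64 members in 0.372 Mb, 172 per Mb (137, 178 and 161 in the replicates, against 40.9, 46.4 and 49.0 over all genes). A member was found in 10 of 43 of these genes (23.3%), with the strongest in mam, N (the Notch receptor) and shn (a zinc finger factor of the Dpp pathway), which had 6 members in 7.70 kb. Without pnt, the gene of this list with most members, its density was 151 per Mb. Nuclear receptor and ecdysone genes had a member in 5 of 19 (26.3%), and 98.5 per Mb, of which ftz-f1 made up a large part, since the density without it was 56.1. Hr4 had 4 members and 4 summits in each replicate, and Eip63E, an ecdysone-induced cyclin-dependent kinase gene, had 2.

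Receptor kinase and phosphatase genes had 70.7 per Mb and a member in 5 of 25, among them Ptp10D with 9, Ddr with 7 and Ptp61F with 1, and 52.7 per Mb without Ptp10D. Cyclic nucleotide genes had the highest share of genes with a member, 13 of 24 (54.2%), at 62.1 per Mb, with the A-kinase anchor rg, the kinase subunit Pka-C1 and the phosphodiesterase Pde9 holding the strongest, and 62.4 per Mb without rg. Their median later intron sequence was 16 kb a gene, against 0.480 kb over all genes. Muscle genes had 57.0 per Mb and a member in 7 of 24, with the strongest in Msp300, Zasp52 and Zasp66, of which the last pair encode Z-disc proteins. Without Msp300 their density was 46.5 per Mb, beside 47.9 over all genes with Msp300 kept.

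Genes of neuronal wiring and adhesion had 52.6 per Mb and a member in 23 of 61, with the strongest in kirre, side and Nrg. Without kirre their density was 38.9 per Mb, beside 47.9 over all genes with kirre kept. RNA-binding protein genes had 51.7 per Mb and a member in 13 of 35, the strongest in how, Rbfox1 and pum, and 47.9 per Mb without Rbp6, the gene of the list with most members. Homeodomain genes had 38.5 per Mb and a member in 7 of 54, led by zfh1, hth and Antp, and 19.6 per Mb without hth. The Antp member, matched in all 3 replicates, had its replicate summits outside the rule, so Antp counts 0 in each replicate. Ion channel genes had 24.3 per Mb (17.4, 25.5 and 26.7 in the replicates) and a member in 10 of 39, with the strongest in the potassium channels Elk and Sh and in Ca-beta, and 21.6 per Mb without Ca-beta. All 3 replicates of the ion channel list lay below all 3 of the background. Ribosomal protein genes had no member in 9 genes with 0.00294 Mb, too little sequence to compare.

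**Figure D4:**
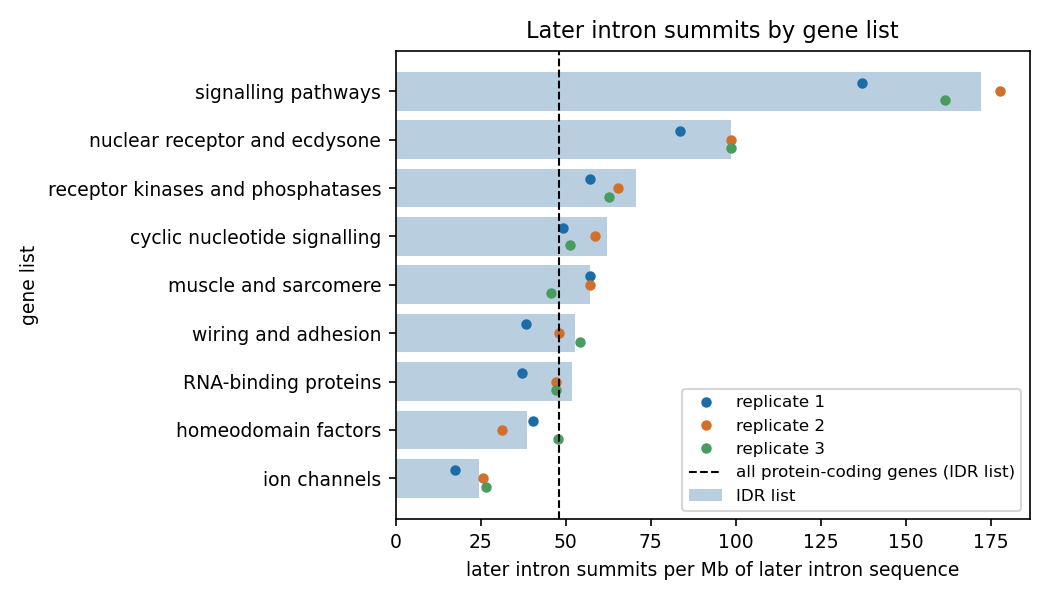
Later intron summits per Mb of later intron sequence for 9 gene lists, with bars for the IDR list and points for the replicates. The dashed line is the density over all protein-coding genes, 47.9 per Mb. Signalling pathway genes reach 172 and ion channel genes 24.3 per Mb.

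Base composition dropped sharply at the summits. GC content within 50 bp of the summit was 31.8% on average (SD 8.45 over members), against 44.4% (SD 8.86) in the window 300 bp away, which held exonic bases for 82 members. It was lower at the summit in 1156 members (81.8%) and higher in 228 (p = 1.50e-149, exact two-sided sign test). In the replicates the means were 32.7, 31.6 and 32.4% at summits and 44.2, 44.2 and 44.0% in flanks. All later intron sequence had 39.5%, so the flanks were above it and the summits below. Members in the stronger 50% of the list had 30.4% at the summit, those in the weaker 50% 33.0%, and later intron peaks of the pooled list outside the IDR set 39.9%, against 42.2% in their own flanks. First intron summits had 32.3% and their flanks 43.3%, a drop in the same direction. The difference between member summits and flanks was -12.6 percentage points, against -9.12 with the flank 1000 bp away and -5.92 in the 348 members with no soft-masked base at the summit.

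**Figure D5:**
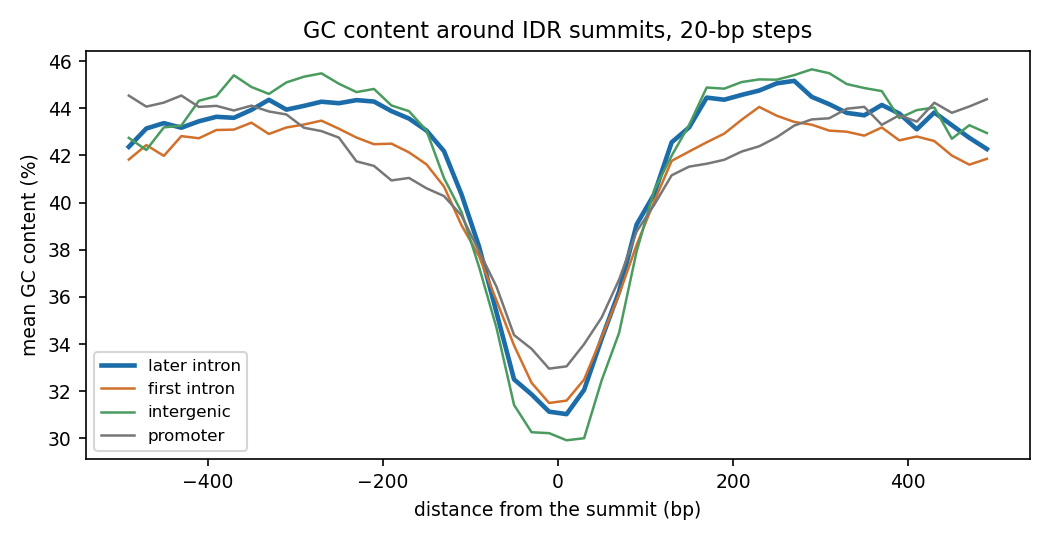
Mean GC content in steps of 20 bp around IDR summits, by distance from the summit, for later intron, first intron, intergenic and promoter peaks. The later intron curve dips at the summit, as do the other 3 classes.

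Runs of A and T grew longer with this drop. The longest run of A and T alone had a median of 10 bases at member summits and 7 in their flanks, and a run of 12 or more stood in 37.8% of summits and 14.4% of flanks. First intron summits had such a run in 35.4%, intergenic summits in 42.5% and promoter summits in 38.4%. This run length was looked at after the data had been seen and was not tested. No preference for a strand of the host gene passed the test: 659 members had more A than T on the sense strand and 686 had more T (p = 0.478, exact two-sided sign test). Soft-masked bases, which mark repeats and low-complexity sequence, were present in 75.4% of summit windows and 62.9% of flank windows.

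Among 17 motifs searched on both strands, 4 stood more often at the summit (23.5% of those tested) and 6 more often in the flank (35.3%), by the exact McNemar test with Benjamini-Hochberg adjustment over the 17. TATAAA, the core of the TATA box, was in 26.4% of summit windows and 7.57% of flanks (exact adjusted p = 3.27e-40). Its share was 25.1% over all IDR summits and 13.3% of later intron sequence cut in windows of the same length. The ratio of summits to flanks was 3.495, and it was 2.04 with the flank 1000 bp away and 2.30 in the 348 members with no soft-masked base. TAATTA, a homeodomain core, was in 10.4% of summits and 3.96% of flanks (exact adjusted p = 1.33e-10), against 7.42% of later intron windows. Its ratio of 2.62 became 1.46 with the flank 1000 bp away, and the call was lost with no soft-masked base (ratio 1.85, exact adjusted p = 0.190). TGATAA, read by GATA factors, was in 10.7% of summits and 5.02% of flanks (exact adjusted p = 4.27e-08), against 6.57% of later intron windows. The fourth was AAAAAA, in 29.0% of summits and 20.4% of flanks (exact adjusted p = 4.72e-07), against 21.4% of later intron windows. In the 348 members with no soft-masked base at the summit its ratio was 0.482 (exact adjusted p = 0.000216). That filter was applied to summit windows and not to flanks. Since soft-masking marks low-complexity sequence, it can take such runs from the summits alone, so this ratio cannot be read as a reversal. All 4 are rich in A and T, and the part of base composition in these counts was not tested.

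The 6 motifs less frequent at summits all held G or C, and the part of base composition in these counts was not tested either. GAGG or GGGG, short words of the G-rich kind reported for kipferl in ovaries, stood in 29.1% of member summits and 61.0% of flanks (exact adjusted p = 6.21e-63), with 48.5% of later intron windows. The low share was not particular to members. It was 29.8% over all IDR summits, 31.1% at first intron, 26.9% at intergenic and 30.4% at promoter summits. ACACAC was in 4.81% of summits and 12.4% of flanks, and GAGAG, the GAGA factor's word, in 8.91% of summits and 15.9% of flanks. The others were GCCAT (13.1% of summits and 20.7% of flanks), GGAAA (24.4 and 32.6%) and CACGTG (0.424 and 1.27%). The GAGAG call was lost with the flank 1000 bp away (ratio 0.851 against 0.56, exact adjusted p = 0.213). It was also lost in the 348 members with no soft-masked base at the summit (ratio 0.685, exact adjusted p = 0.182). In that smaller set the GCCAT call was lost too (ratio 0.853 against 0.631, exact adjusted p = 0.650). The GGAAA call was lost with 1 member per gene (exact adjusted p = 0.127) and with 25 bp either side (0.0781). The CACGTG call was lost under several alternatives, among them without replicate 1 (exact adjusted p = 0.0704) and without replicate 2 (0.0834). The replicates kept these orders, with GAGG or GGGG in 29.4 ± 1.69% of summits and 58.6 ± 0.333% of flanks and TATAAA in 26.3 ± 0.985% of summits and 8.33 ± 1.09% of flanks (SD, n = 3).

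Every word of 6 bp was tested, with reverse complements joined; 400 stood more often at the member's summit than in its flank (19.2%) and 776 less often (37.3%), by the exact McNemar test adjusted over all words. The first included all 36 words with neither G nor C, and the second 30 of the 36 words with neither A nor T. The word with the smallest p was AAATAT, in 37.9% of summits and 12.2% of flanks, and AATATT had the largest ratio of the 12 leading words, with 21.5% of summits and 5.23% of flanks. CCACCC led the words that were less frequent at summits, with 1.202% of summits and 8.98% of flanks.

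Few differences in motif content between members and the other classes passed the test. Over 17 motifs and 3 classes, 2 of 51 comparisons passed (3.92%, two-sided Fisher's exact test, adjusted over the 51). TTTATG, the word of the homeodomain factor Caudal, was in 12.4% of later intron summits and 17.3% of first intron summits (odds ratio 0.681, exact adjusted p = 0.00108), and did not differ between member summits and flanks beyond the test (12.4 and 12.5%, exact adjusted p = 1). TATCGATA, the Dref word, was in no later intron summit of the IDR list, which allows a share of up to 0.212% by counting error alone, and in 1.69% of promoter summits (exact adjusted p = 1.30e-07). In the lists of replicates 1, 2 and 3 it was in 0.248, 0.146 and 0% of later intron summits. The TATAAA share, 26.4% in later intron summits, was 24.6% in first intron and 27.3% in intergenic summits, and neither difference passed (exact adjusted p = 0.467 and 0.853).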

How the data were processed

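The deposited peak lists in narrowPeak form give, for each peak, an interval, a signal value, a −log10 p- and q-value and a summit offset, on dm6 per the labels. The signal values are the authors' scores as deposited and were used as ranks within a list. The deposited −log10 values were not used. The sources used here name no aligner or peak caller, and depth per sample is unknown. Summits were classed with Ensembl release 115 gene models (BDGP 6.54, 18164 genes, transposable elements kept apart), and bases were read from RefSeq's FASTA of that assembly, whose arm lengths fit every peak. Coordinates are 1-based. The host intron is the shortest protein-coding intron that holds the summit; 37 members lay in introns of more than 1 gene, which count in each gene. Densities divide summits by the bases that meet the same rule. Replicate values use the 9459 strongest peaks of each replicate list.

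The members, the 17 motifs and the 11 gene lists were chosen with earlier results of these data known, and a comparison by TSS distance, X and nested genes was added after the data had been seen. Of the listed symbols, 2 had no match. The result of 1 list is not reported here. Genes were named by rule: the 20 strongest members matched in all replicates, the 10 genes with most members (without Rbp6 and fz2, which tied with the last), and up to 3 genes per list with the strongest members. The threshold was an adjusted p of 0.05. Alternatives were the TSS distance, 1 summit per interval or gene, the stronger 50% of peaks, each replicate left out, the match distance, window, flank and soft-masked bases, the longest host intron, and transposable elements counted as genes. The word test was checked on simulated windows with planted words, in which summits and flanks had the same base composition. That check cannot show how many words were called through the difference in composition between real summits and flanks. Tools were Python 3.11.15, numpy 2.4.6, pandas 2.3.3, scipy 1.17.1 and matplotlib 3.10.9.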

Additional observations from a re-analysis of the deposited data

How the results depend on the processing

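The ratio of the later intron share of summits to its share of sequence stayed below 1 under each alternative run, and was 0.604 in the stronger 50% of IDR peaks and 0.744 with transposable elements counted as genes, an alternative chosen after seeing the data. Restricting pooled peaks to those matched in both remaining replicates left 40 to 98 peaks outside the IDR set, and the odds ratio of IDR against those peaks turned to 1.21 to 3.43 (p 0.0772 to 0.839). Against first intron peaks, the odds ratio for the stronger 50% was 0.834 to 0.875 with a replicate left out and 0.849 with 1 peak per gene (exact adjusted p = 0.139), and the odds ratio for matching in all replicates was 1.21 in the stronger 50% (exact adjusted p = 0.508). Words more frequent at summits numbered 250 with 1 member per gene, 260 with 25 bp either side and 31 with no soft-masked base, which left 348 members, and words less frequent numbered 435, 491 and 13, and 490 in the stronger 50%. With no soft-masked base, 2 motifs were more frequent, A exceeded T on the sense strand in 50.2% (exact p = 1), and AAAAAA had a ratio of 0.482. The soft-masked filter was applied to summit windows and not to flanks. Motifs that differed from first intron summits numbered 1 to 2 with a replicate left out, and 0 with 1 peak per gene or no soft-masked base. Genes with a member numbered 357 in the stronger 50%. The cause of each of these was not tested. No paired analysis was possible because the 3 replicates form 1 group, so replicate numbers pair no samples across groups; summits and flanks were paired within each region. Unknown depth limits any statement on weak peaks.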
